A study of Mus musculus with 24 samples.

Results

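Interferon-stimulated genes are described here across adipocyte differentiation of 3T3-L1 cells, with and without inhibition of sumoylation. The set is a list of 35 mouse genes known to respond to type I interferon, taken by symbol. Where a symbol had several entries, the best counted one (mean of total reads in all libraries) was taken. *Mx2* is not listed in the tables, so 34 of the 35 genes were described, out of 26995 gene symbols in all. 3T3-L1 is a mouse embryonic fibroblast line of pre-adipocytes, and every library comes from this single line. The study asked how sumoylation shapes transcription during differentiation by adding ML-792, an inhibitor of the SUMO activating enzyme, at 0.5 μM, with DMSO as the control. Cells of both treatments were collected at days −2, 1, 3 and 7, with 3 biological replicates A, B and C in each of the 8 conditions, which makes 24 libraries. RNA was labelled with 100 μM 4-thiouridine for 45 min in every condition, DMSO included. Each library thus gave a count of all reads (total reads, QuantSeq) and a count of reads with at least 1 T to C conversion (labelled reads, SLAMseq), which mark RNA made during the labelling. No library without 4-thiouridine was used here, so conversions from sequencing error were not subtracted. At day −2 the cells were in maintenance medium with calf serum. The later days followed induction with dexamethasone, 3-isobutyl-1-methylxanthine, insulin and fetal bovine serum, and from day 3 on the medium held insulin and fetal bovine serum. Time and medium therefore cannot be told apart. How long the day −2 cells had been exposed to ML-792 is not stated in the sources used here.

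Type I interferons bind a receptor at the cell surface, whose JAK kinases pass the signal on to the factor ISGF3. STAT2 and IRF9 are parts of this factor, which binds the interferon-stimulated response element (ISRE) in the promoters of interferon-stimulated genes. The response to interferon gamma runs through a different element named GAS, and IRF1 binds ISRE-like sites. The products sense viral RNA, block its translation or degrade it, tag proteins with ISG15, or present peptides to T cells, and many are also expressed at a low level without interferon.

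The letters of these elements were searched in RefSeq promoters of the GRCm38.p6 build, from 250 bases before to 50 bases after each gene start, on both strands. The table of promoters held 27 of the 35 genes, with 33 promoters. GAAANNGAAA, the core of the ISRE, was present in 11 of the 33 promoters (33.3%), against 3.44% of all 32851 promoters of that length. TTCNNNGAA, the GAS letters, which read the same on both strands, was present in 6 of 33 (18.2%), against 8.30% of all promoters. These matches are a description and do not show binding. The sequences below are examples of genes that hold an element, with 10 bases on each side of the element and the element in capitals, read 5′ to 3′ along the gene's strand. An ISRE core on the opposite strand appears as its reverse complement. The first 3 belong to *Ifit1*, *Ifit3* and *Isg15*, which fell steeply after induction and were not called for ML-792. *Cmpk2*, *Ifi44* and *Oasl2*, which also changed in what follows, hold neither element in this window.
Ifit1: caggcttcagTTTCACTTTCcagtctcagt
Ifit3: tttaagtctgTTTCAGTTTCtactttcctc
Isg15: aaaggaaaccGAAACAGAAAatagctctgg
They lie at chr19:34640775-34640804, chr19:34583397-34583426 and chr4:156200865-156200894, and the elements start 104, 122 and 66 bases before the gene start. *Ifit1* and *Ifit3* hold a further ISRE core each, and *Isg15* holds 3 that overlap. The next 3 belong to genes that were higher with ML-792.
Gbp2: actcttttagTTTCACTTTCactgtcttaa
Bst2: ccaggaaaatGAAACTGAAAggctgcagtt
Rsad2: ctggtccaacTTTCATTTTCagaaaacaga
They lie at chr3:142620594-142620623, chr8:71537577-71537606 and chr12:26456553-26456582, with elements 59, 124 and 120 bases before the start. *Bst2* also holds a further ISRE core and GAS letters. *Ifit2*, not shown and also called higher with ML-792, holds GAS letters without an ISRE core. The last pair holds GAS letters without an ISRE core and belongs to genes that were lower with ML-792.
Irf1: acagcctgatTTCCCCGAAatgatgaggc
Isg20: ctggggagggTTCTTGGAAtttttccttt
They lie at chr11:53769914-53769942 and chr7:78913341-78913369, 90 and 73 bases before the start. Of the 9 genes called higher with ML-792 at 1 day or more, 7 had a promoter in the table, 3 with an ISRE core and 2 with GAS letters. Among the 22 genes of the list in the tables called at no day, 17 had a promoter, 8 with an ISRE core and 2 with GAS letters.

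The libraries held 13554718 to 27013352 total reads and 115709 to 820046 labelled reads over all entries. Values below are normalized counts, that is, each count over its library's effective size (TMM), times the mean effective size of the 24 libraries. A count of 3 reads in a library was taken as the floor. Of the 34 genes, 32 passed the filter on low counts in total reads. *Oasl1* (21 reads in all 24 libraries) and *Xaf1* (98 reads) did not. In labelled reads 19 passed. The adipocyte markers fixed for the check (7 genes, *Adipoq* and *Fabp4* among them) summed to 1227 to 2235 normalized counts in DMSO at day −2 and to 366734 to 436296 at day 7. Of 9 leukocyte markers, *Ptprc* was at 0 in all 24 libraries, and *Adgre1*, *Itgam*, *Cd3e* and *Siglech* had 12, 14, 5 and 16 reads in all libraries together. *Cd14* (3226 reads) and *Cd68* (1200 reads) were counted in every library, and *Csf1r* and *Lyz2* had 384 and 117 reads. The interferon genes themselves were at or near 0. *Ifna4* and *Ifnl2* had no read, *Ifnb1* had 4 reads in 1 library and *Ifng* 7 reads in all.

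Without the inhibitor, the interferon-stimulated genes were high in pre-adipocytes and fell after induction. Of the 32 genes tested, 28 had fallen below their day −2 level by day 1, 29 by day 3 and 25 by day 7, each at an adjusted p under 0.01 by edgeR's quasi-likelihood test in the 12 DMSO libraries. Over all tested genes, 10.3% were lower at day 1, 19.4% at day 3 and 19.9% at day 7. The median log2 fold change of the 32 genes was -2.60, -3.39 and -2.74 at the 3 days, whereas the median of all genes was 0.002, 0.045 and -0.02. With *Oas2* and *Mx1*, which had no read at day 3, set to their bounds the median at day 3 was -3.39 as well. The 3 comparisons share the day −2 libraries. Some genes, *Oas2*, *Mx1* and *Rsad2* among them, passed the filter on low counts through day −2 alone. For these a fall was the only change the test could show. In these bulk samples, fewer cells that express a gene and less RNA per cell cannot be told apart. Summed over the 34 genes, DMSO libraries held 23714 to 34211 normalized counts at day −2, 6159 to 7653 at day 1, 6298 to 7830.1 at day 3 and 11106 to 12772 at day 7. The higher sum at day 7 was not shared by all genes. *Ifi27*, the largest part of it, had 5182 reads over the DMSO libraries of day 3 and 13385 at day 7, whereas *Ifit1* had 48 and 43. Markers of pre-adipocyte fibroblasts (6 genes) summed to 284157 to 335685 at day −2, 169981 to 195634 at day 1 and 24874 to 37873 at day 7, and their part in the fall was not tested. Leaving out 1 replicate letter moved these counts. The genes lower at day 1 numbered 21 without A (*Cmpk2*, *Eif2ak2*, *Ifi27*, *Ifih1*, *Mx1*, *Oas2* and *Samd9l* lost) and 21 without C (*Cmpk2*, *Dhx58*, *Eif2ak2*, *Gbp3*, *Ifi27*, *Ifih1* and *Irf7* lost). At day 3 they numbered 25 without A and 23 without C, with *Eif2ak2*, *Ifi27*, *Ifih1* and *Irf1* lost in both and *Irf7* and *Usp18* lost without C.

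**Figure D1:**
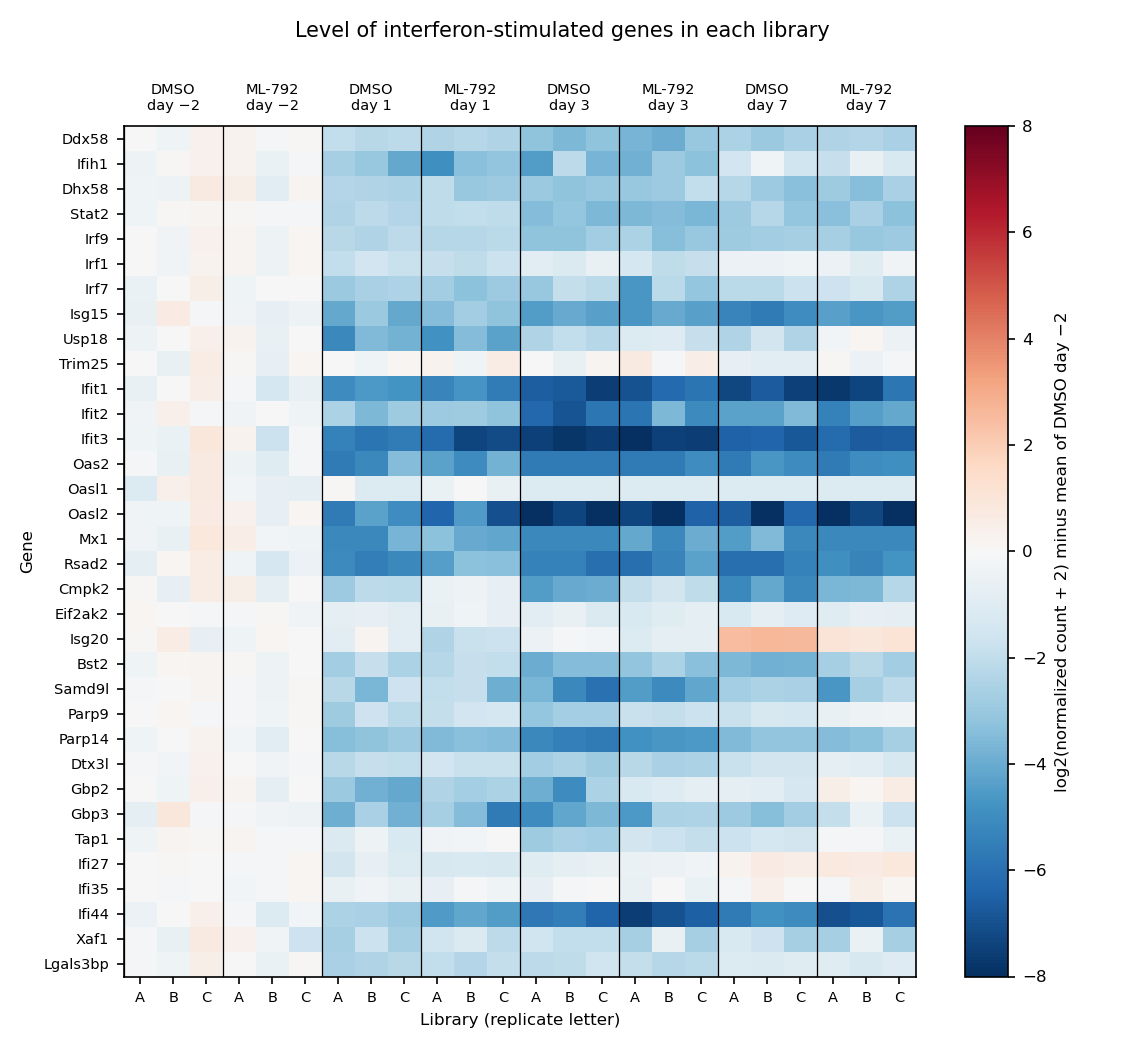
Each row is a gene and each column a library, grouped by day and treatment. Colour gives log2(normalized count + 2) minus the mean of the DMSO libraries at day −2, with blue for lower. *Ifit1*, *Ifit3* and *Oasl2* are dark blue in every library after day −2, *Trim25* and *Ifi35* stay pale, and *Isg20* is red in the 3 DMSO libraries of day 7.

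The IFIT genes, whose proteins bind viral RNA, fell steeply. *Ifit1* (NM_008331.3, chromosome 19, 34648858 to 34650009) had 1613, 2486 and 3462 normalized counts in the DMSO replicates A, B and C at day −2. It had 71.5, 96.4 and 84.3 at day 1, 23.2, 21 and 11 at day 3 and 13.5, 21.7 and 11.4 at day 7. No later library came near the lowest of day −2, and the mean was 30-fold lower at day 1 and 162-fold lower at day 7 (log2 fold change -7.32, standard error 0.37, adjusted p = 9.61e-10, edgeR). *Ifit3* had log2 fold changes of -5.84 at day 1 and -8.13 at day 3 (adjusted p = 3.1e-09 at the latter, edgeR), and *Ifit2* had -3.02 at day 1 (adjusted p = 5.16e-05, edgeR). The 3 genes lie next to each other on chromosome 19, with 11.7 kb and 59.9 kb between their entries.

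The OAS genes make a second messenger that activates RNase L, and the MX and related genes encode other antiviral effectors. *Oasl2* (NM_011854.2, chromosome 5, 114911368 to 114912245), the best counted of the OAS genes, had 412, 394 and 799 normalized counts at day −2. At day 1 it had 8.15, 24.6 and 13.9 and at day 3 0, 1.17 and 0, which is 1 read in all 3 libraries. The day 7 libraries held 3.38, 0 and 4.58. The fall at day 1 was 34.5-fold (adjusted p = 2.99e-06, edgeR). *Oas2*, with 378 reads at day −2, had none at day 3, at least 93.1-fold lower against a floor of 3 counts over the group. For *Mx1*, a dynamin-like GTPase counted on a non-coding transcript, the day 3 libraries were also at 0, at least 64.5-fold lower. *Rsad2*, which encodes viperin, fell by 6.46 on the log2 scale at day 1 (standard error 0.62, adjusted p = 3.11e-06, edgeR). *Eif2ak2*, the kinase PKR that halts translation, had log2 fold changes of -0.78, -0.89 and -1.01 (adjusted p = 0.00908, 0.00199 and 0.00065, edgeR).

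Sensors and transcription factors of the pathway fell as well. *Ddx58* (NM_172689.3, chromosome 4, 40203777 to 40205809), the cytoplasmic RNA sensor RIG-I, had 745, 622 and 999 normalized counts at day −2. It had 196, 163 and 182 at day 1, 81.6, 61.9 and 83.1 at day 3 and 133, 98 and 126 at day 7. The groups did not overlap, and the mean was 10.4-fold lower at day 3 (adjusted p = 4.06e-08, edgeR). All 4 transcription factors were lower at days 1 and 3. *Stat2* and *Irf9*, both parts of ISGF3, were at log2 fold changes of -3.41 and -3.10 at day 3 (adjusted p = 6.62e-08 and 2.27e-08, edgeR). *Irf1* was at -1.76 at day 1 (adjusted p = 1.28e-05, edgeR). By day 7 its log2 fold change was -0.45 (adjusted p = 0.0654, edgeR), so it was no longer called at the last day.

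A few genes did not follow in total reads. *Trim25* (XM_017314476.1, chromosome 11, 89016722 to 89020293), a ubiquitin ligase that acts with RIG-I, was called at no day in total reads. It had 1111, 743 and 1685 normalized counts at day −2 and 698, 634 and 625 at day 7, below all of day −2 (adjusted p = 0.0176, edgeR). In the alternatives its adjusted p at day 7 ran from 0.00035 to 0.222 (edgeR and DESeq2). In labelled reads *Trim25* was called lower at days 3 and 7. Those calls were lost without A, without C and when scaled by the labelled reads. *Ifi27* (NM_194069.2, chromosome 12, 103440172 to 103440245) had 3373, 3682 and 3349 normalized counts at day −2, 1242, 2222 and 1637 at day 1, 1761, 1982 and 2307 at day 3 and 4251, 5486 and 4914 at day 7. It was lower at days 1 and 3 and not called at day 7, where all 3 libraries lay above those of day −2 (adjusted p = 0.0566, edgeR). The exonuclease gene *Isg20* was the only gene of the list called higher at any day. Its DMSO libraries held 154, 209.5 and 87.3 at day −2, 77.9, 166 and 78.6 at day 1, 102, 132 and 121 at day 3 and 806, 900.4 and 878 at day 7. Day 7 stood 5.74-fold above day −2 (log2 fold change 2.52, standard error 0.33, adjusted p = 1.56e-05, edgeR). Of all genes, 19.7% were higher at day 7.

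At day −2 no gene of the list was called for ML-792. By edgeR in all 24 libraries, 0 of the 32 genes had an adjusted p under 0.1 at this day, 0 had an unadjusted p under 0.05, and DESeq2 called 0. Of all 13331 genes tested, 0% were called, and 186 had an unadjusted p under 0.05. The log2 fold changes of the 32 genes had a median of -0.13, with *Ddx58* alone above 0, and the median of all genes was -0.01. *Ifit1* had 2193, 891 and 1610.3 normalized counts with ML-792, a range that overlaps that of DMSO (log2 fold change -0.69, standard error 0.35).

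After induction, some genes of the list were called for ML-792. At day 1, 3 of 32 genes were higher (3.81% of all genes) and 2 were lower (4.09% of all genes). At day 3, 5 were higher (8.19% of all genes) and 2 lower (7.35%), and at day 7, 7 were higher (6.25%) and 2 lower (5.39%), each at an adjusted p under 0.1 by edgeR. The 2 genes called lower at each day are near the share of all genes called lower. The list had median log2 fold changes of -0.01, 0.45 and 0.21 at the 3 days, beside -0.01, 0.002 and 0.01 for all genes. With genes at 0 in a group set to their bound and *Oas2* left out, the medians of days 3 and 7 were 0.35 and 0.21. The genes called higher were *Cmpk2*, *Rsad2* and *Tap1* at day 1, *Cmpk2*, *Gbp2*, *Ifit2*, *Parp9* and *Tap1* at day 3, and *Bst2*, *Cmpk2*, *Dtx3l*, *Gbp2*, *Parp9*, *Tap1* and *Usp18* at day 7. *Ifi44* was lower at all 3 days, *Isg20* at days 1 and 7 and *Irf1* at day 3. None of the sensors and none of *Stat2*, *Irf9*, *Irf7*, *Isg15*, *Ifit1*, *Ifit3*, *Oas2*, *Oasl2* or *Mx1* was called at any day. Of these 21 calls, 8 were made in every alternative run. Without replicate A, 2, 3 and 4 genes were called on days 1, 3 and 7, and without replicate C 2, 4 and 5, in place of 5, 7 and 9. Where a call was lost without 1 replicate letter, which takes 1 library from each of the 8 conditions, the adjusted p without it is given. Markers of cell types moved with the treatment. The sum of the adipocyte markers was 1926 to 3455 normalized counts in DMSO and 4068 to 6594 in ML-792 at day 1, and 616089.5 to 642564 in ML-792 at day 7, above the DMSO range given before. At day 3 the ranges overlapped. Of the 7 adipocyte markers, 2 were called higher at day 1, 1 higher and 2 lower at day 3, and 4 higher at day 7. The leukocyte markers summed to 161 to 196 in DMSO and 267 to 442 in ML-792 at day 1, where *Cd14* was the one called. At day 7 *Csf1r* was called higher, and the leukocyte sums overlapped at days −2, 3 and 7. The 6 fibroblast markers summed to 169981 to 195634 in DMSO and 104738 to 161977 in ML-792 at day 1, lower with the inhibitor. At day 7 they were higher with it, 24874 to 37873 against 45197 to 63465, and at days −2 and 3 the ranges overlapped. Of these 6 markers, 1 was called higher and 1 lower at day 1, 3 higher at day 3, and 3 higher and 1 lower at day 7. The part of these 3 groups of markers in the results was not tested.

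**Figure D2:**
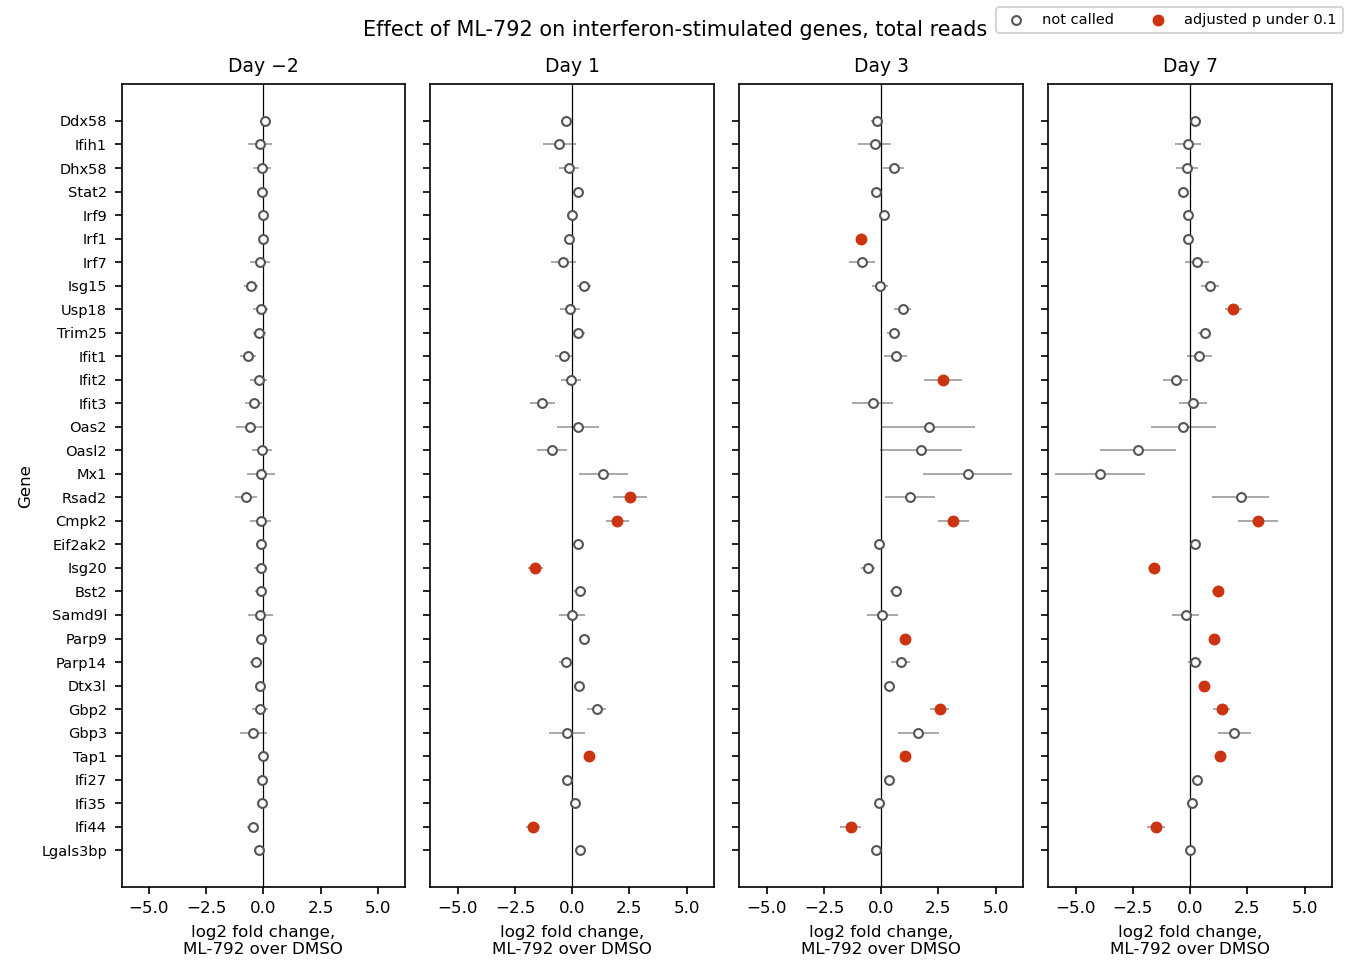
For each gene tested and each day, the point gives the log2 fold change of ML-792 over DMSO in total reads and the bar its standard error. Filled points have an adjusted p under 0.1 (edgeR). At day −2 all points are open, and after induction 21 are filled, with *Tap1* and *Cmpk2* to the right at all 3 later days and *Ifi44* to the left. The wide bars at days 3 and 7 belong to genes with few reads, whose fitted values are no bounds.

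*Tap1*, a gene of peptide presentation, and *Gbp2*, an interferon-induced GTPase, were higher with ML-792. *Tap1* (NM_001161730.1, chromosome 17, 34196775 to 34197225) encodes a subunit of the transporter that moves peptides into the endoplasmic reticulum for MHC class I. It had 216, 369 and 209 normalized counts in DMSO and 405, 418 and 498 in ML-792 at day 1, 67.3, 79.4 and 74.5 against 177, 151 and 129 at day 3, and 146, 184 and 175 against 448, 456 and 344 at day 7. Every ML-792 library lay above every DMSO library of its day, whereas at day −2 they overlapped, with 384, 579.6 and 534 in DMSO and 568, 468 and 445 in ML-792. The mean was 1.66-fold higher at day 1 (adjusted p = 0.0462, edgeR), 2.07-fold at day 3 (adjusted p = 0.00321) and 2.47-fold at day 7 (adjusted p = 0.000336). At day 1 *Tap1* was not called without replicate A (adjusted p = 0.448, edgeR) or C (0.561), nor in a fit of the 6 libraries of the day (0.17). At day 3 it was not called without A (0.161). *Gbp2* (NM_010260.1, chromosome 3, 142637494 to 142638008) encodes a guanylate-binding protein. At day −2 it had 313, 258 and 429 in DMSO and 387, 200.3 and 323 in ML-792, and at day 1 39.8, 20.9 and 17.2 against 60.1, 48.7 and 53.9. At day 3 the values were 19.9, 8.18 and 55 against 139, 160.3 and 187, and at day 7 193, 176 and 128 against 448, 356 and 496. The treated libraries were thus above the controls at days 1, 3 and 7, but day 1 was not called (adjusted p = 0.191, edgeR). *Gbp2* was 5.86-fold higher at day 3 (log2 fold change 2.56, standard error 0.42, adjusted p = 0.000143, edgeR) and 2.61-fold at day 7 (adjusted p = 0.0196). The day 7 call was lost without A (adjusted p = 0.222, edgeR) or C (0.193). *Gbp3*, 64.3 kb away, had 11.3, 7.22 and 12.6 against 25.1, 65.4 and 28.6 at day 7 (adjusted p = 0.116, edgeR). Its groups were apart, and it was called at this day in 5 of 9 alternatives (adjusted p from 0.0172 to 0.0868 in these).

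*Parp9* and *Dtx3l*, whose products form a complex of an ADP-ribosyltransferase and a ubiquitin ligase, lie 42.9 kb apart on chromosome 16. *Parp9* (NM_030253.3, chromosome 16, 35972230 to 35972621) had 381, 446 and 364 normalized counts in DMSO and 367, 317 and 431 in ML-792 at day −2, and 54.3, 126 and 87.6 against 103, 135 and 145 at day 1. At day 3 it had 44.1, 58.4 and 58.6 against 112, 106 and 118, and at day 7 116, 163 and 145 against 262, 292 and 321. The groups did not overlap at the last 2 days. It was 2.08-fold higher at day 3 (adjusted p = 0.00641, edgeR) and 2.06-fold at day 7 (adjusted p = 0.00611), and lost its call without A (0.112 and 0.102) or C (0.136 and 0.215). *Dtx3l* (NM_001013371.2, chromosome 16, 35926515 to 35929298) had 434, 386 and 573 in DMSO and 472, 377 and 407 in ML-792 at day −2, 95.1, 128 and 118 against 154, 134 and 134 at day 1 and 64, 75.9 and 61.1 against 98.5, 75 and 78.9 at day 3. At day 7, 133, 165 and 165 in DMSO stood below 272, 243 and 188 in ML-792, a 1.52-fold difference (adjusted p = 0.074, edgeR). This call was lost without A (0.648), without B (0.105) and without C (0.199), with both other filters on low counts (0.137 and 0.348) and in a fit of the day's 6 libraries (0.178). *Parp14*, their neighbour, was not called (log2 fold change 0.85 at day 3, adjusted p = 0.261, edgeR).

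In the ISG15 system, *Usp18* (NM_011909.2, chromosome 6, 121270518 to 121270917) encodes the protease that removes ISG15 and restrains signalling at the interferon receptor. Its DMSO libraries had 371, 474 and 639 normalized counts at day −2, 11.8, 40 and 32.8 at day 1, 90.4, 120.3 and 99 at day 3 and 91.2, 176 and 88.2 at day 7. With ML-792 they had 579, 318 and 470.0, 14.8, 41.5 and 23.2, 223, 233 and 134 and 423, 537 and 355 at the same days. The groups overlapped at days −2 and 1 and were apart at days 3 and 7. Day 7 was called, 3.7-fold higher (log2 fold change 1.88, standard error 0.36, adjusted p = 0.00137, edgeR), and day 3 was not (adjusted p = 0.122), although 6 of 9 alternatives called it. *Isg15* itself, the modifier, had 16.9, 12.4 and 20.6 in DMSO and 33.4, 26.1 and 30 in ML-792 at day 7 (adjusted p = 0.247, edgeR), with no overlap and no call. *Trim25* had 698, 634 and 625 against 1190.3, 821 and 1019 at day 7 (adjusted p = 0.24, edgeR), and the groups were apart. It was called at this day in 4 of 9 alternatives, among them without replicate B (adjusted p = 0.0081, edgeR).

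Of the antiviral effectors, *Cmpk2* and *Rsad2* are neighbours on chromosome 12, with 32.7 kb between their entries. *Cmpk2* (NM_020557.4, chromosome 12, 26478130 to 26479837), a mitochondrial nucleotide kinase, had 73.1, 41.7 and 103 normalized counts in DMSO and 93.5, 40.2 and 67.7 in ML-792 at day −2. It then had 7.24, 14.6 and 13.9 against 46.4, 51 and 42.7 at day 1, 1.1, 2.34 and 2.44 against 16.4, 23.3 and 14.8 at day 3 and 0, 2.06 and 0 against 3.58, 3.92 and 12.3 at day 7. All treated libraries lay above the controls at the 3 later days, and the controls of days 3 and 7 were at or under the floor of 3 reads per library. The difference was 3.93-fold at day 1 (adjusted p = 0.02, edgeR) and 9.26-fold at day 3 (adjusted p = 0.00276). At day 7, with 2 reads in DMSO and 15 in ML-792, the ratio was 8.77 (95% counting interval 2.04 to 79) (adjusted p = 0.0407, edgeR). The calls of days 1 and 7 were lost without A (0.409 and 0.257) or C (0.147 and 0.624), and in a fit of the 6 libraries of day 7 the gene did not pass the filter on low counts. *Rsad2* (NM_021384.4, chromosome 12, 26442743 to 26445405) had 77.2, 145 and 196 in DMSO and 102, 50.1 and 93.6 in ML-792 at day −2. At day 1 it had 1.81, 0.909 and 1.64 against 4.22, 11.9 and 11.2, with no overlap and a 6.25-fold difference (adjusted p = 0.048, edgeR). The call was lost without A (0.137), B (0.266) or C (0.304), and the gene did not pass the filter in a fit of the day's 6 libraries. Later values of *Rsad2* were 1.1, 1.17 and 0 against 0, 1.29 and 4.93 at day 3 and 0, 0 and 1.15 against 2.39, 1.31 and 2.73 at day 7, a few reads in each library.

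*Bst2* (NM_198095.2, chromosome 8, 71534259 to 71534480) encodes tetherin, which holds budding virus at the cell surface. At day −2 it had 965, 1380.4 and 1407 normalized counts in DMSO and 1295, 942 and 1230.0 in ML-792, and at day 1 177, 338 and 208 against 254, 339.5 and 318. At day 3 it had 78.3, 109 and 109 against 135, 215 and 118 and at day 7 101, 82.5 and 89.3 against 191, 263 and 175. The groups were apart at days 3 and 7, and day 7 was called, 2.3-fold higher (adjusted p = 0.00432, edgeR). *Ifit2* (XM_006526705.2, chromosome 19, 34574475 to 34576534) was called at day 3 (log2 fold change 2.69, adjusted p = 0.0421, edgeR) on 3 reads in DMSO and 20 in ML-792, a ratio of 6.88 (95% counting interval 2.04 to 36.2). The groups overlapped, with 1.1, 0 and 2.44 against 2.19, 18.1 and 4.93 normalized counts, and replicate B of ML-792 held most of the reads. Without any 1 of the letters the call was lost, with an adjusted p of 0.107 without A, 0.585 without B and 0.108 without C, and the gene did not pass the filter in a fit of the day's 6 libraries. At days −2, 1 and 7 *Ifit2* had 193, 309 and 224, 38.9, 18.2 and 31.9 and 10.1, 10.3 and 18.3 in DMSO and 199, 244 and 184, 30.6, 32 and 24.1 and 3.58, 9.15 and 12.3 in ML-792.

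The IFIT and OAS genes that fell most in DMSO stayed low with ML-792. *Ifit1* had 59.1, 87.8 and 48.3 normalized counts at day 1, 17.5, 29.7 and 39.4 at day 3 and 9.55, 13.1 and 40.9 at day 7 with the inhibitor, and each range overlapped that of DMSO given above. Its log2 fold change of ML-792 over DMSO was 0.63 at day 3 (standard error 0.51) and 0.41 at day 7 (standard error 0.55, adjusted p = 0.577 and 0.786, edgeR). *Oasl2* had 642, 319.5 and 574 at day −2 and then 4.22, 20.2 and 1.86, 1.09, 0 and 3.7 and 0, 1.31 and 0 with ML-792, 1 to 4 reads in all at days 3 and 7. With such counts of *Oasl2*, a difference at days 3 and 7 could not be judged. *Ifit1* had 48 reads in DMSO and 71 in ML-792 at day 3, and 43 and 48 at day 7, and was not called. *Ddx58* had 924, 724 and 822, 142, 157 and 145, 55.8, 46.5 and 94.9 and 144, 148 and 126 with ML-792 at the 4 days, with log2 fold changes from -0.28 to 0.23 and no call, although the day 1 libraries lay below those of DMSO. *Trim25* had 1215, 706 and 1223, 1354, 888 and 1653 and 1854, 1057 and 1596 at days −2, 1 and 3, and 1120.1, 868 and 1247 and 1071, 731 and 1289 in DMSO at days 1 and 3. *Ifi27* had 3186, 3054 and 3801, 1412, 1489 and 1414, 2377, 2516 and 2816 and 6002, 5560.0 and 6218 with ML-792, and at days 3 and 7 all treated libraries lay above the controls without a call (adjusted p = 0.246 and 0.42, edgeR). Of the others, *Ifih1* and *Dhx58*, the sensors MDA5 and LGP2, *Irf7*, *Samd9l*, *Ifi35* and the secreted glycoprotein gene *Lgals3bp* had log2 fold changes of -0.10, -0.14, 0.30, -0.20, 0.09 and -0.01 at day 7, none of them called.

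Lower with ML-792 were *Isg20* (NM_001291221.1, chromosome 7, 78920163 to 78920396), *Ifi44* (XM_006502485.1, chromosome 3, 151730922 to 151732512) and *Irf1* (NM_008390.2, chromosome 11, 53776447 to 53777324). *Isg20* had 110.1, 155 and 147 normalized counts with ML-792 at day −2, 25.3, 39.2 and 40.9 at day 1, 65.6, 86.6 and 86.3 at day 3 and 290.1, 265 and 309.7 at day 7. From day 1 on all of them lay below the DMSO libraries of the day. The mean was 3.06-fold lower at day 1 (adjusted p = 0.00182, edgeR) and 2.99-fold lower at day 7 (log2 fold change -1.58, standard error 0.28, adjusted p = 0.000638), and day 3 was not called (adjusted p = 0.293). *Ifi44*, whose function is not well defined, had 882, 1229 and 1589 in DMSO and 1135, 561 and 1034 in ML-792 at day −2, and 208, 193 and 159.7 against 49.6, 66.5 and 53 at day 1. It had 20.9, 24.5 and 12.2 against 4.38, 7.75 and 11.1 at day 3 and 21.4, 39.2 and 34.4 against 7.16, 9.15 and 17.7 at day 7. No treated library reached the controls at the 3 later days, and the means were 3.32-fold, 2.48-fold and 2.79-fold lower (adjusted p = 0.000598, 0.0737 and 0.0245, edgeR). Days 3 and 7 lost the call without A (0.46 and 0.153) or B (0.286 and 0.187), and day 7 also in the fit of its 6 libraries (0.141). In the fit of the 6 libraries of day 3 *Ifi44* did not pass the filter. *Irf1*, the transcription factor of the interferon gamma response, had 2056, 1709 and 2535 in DMSO and 2393, 1586 and 2301 in ML-792 at day −2, and 528, 718 and 608 against 575, 496 and 620.5 at day 1. At day 3 it had 1093, 948 and 1376 against 784, 513 and 564, and at day 7 1490.2, 1483 and 1618 against 1507, 1075 and 1682. It was apart from DMSO at day 3 alone, 1.83-fold lower (adjusted p = 0.00639, edgeR), a call lost without C (0.26).

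**Figure D3:**
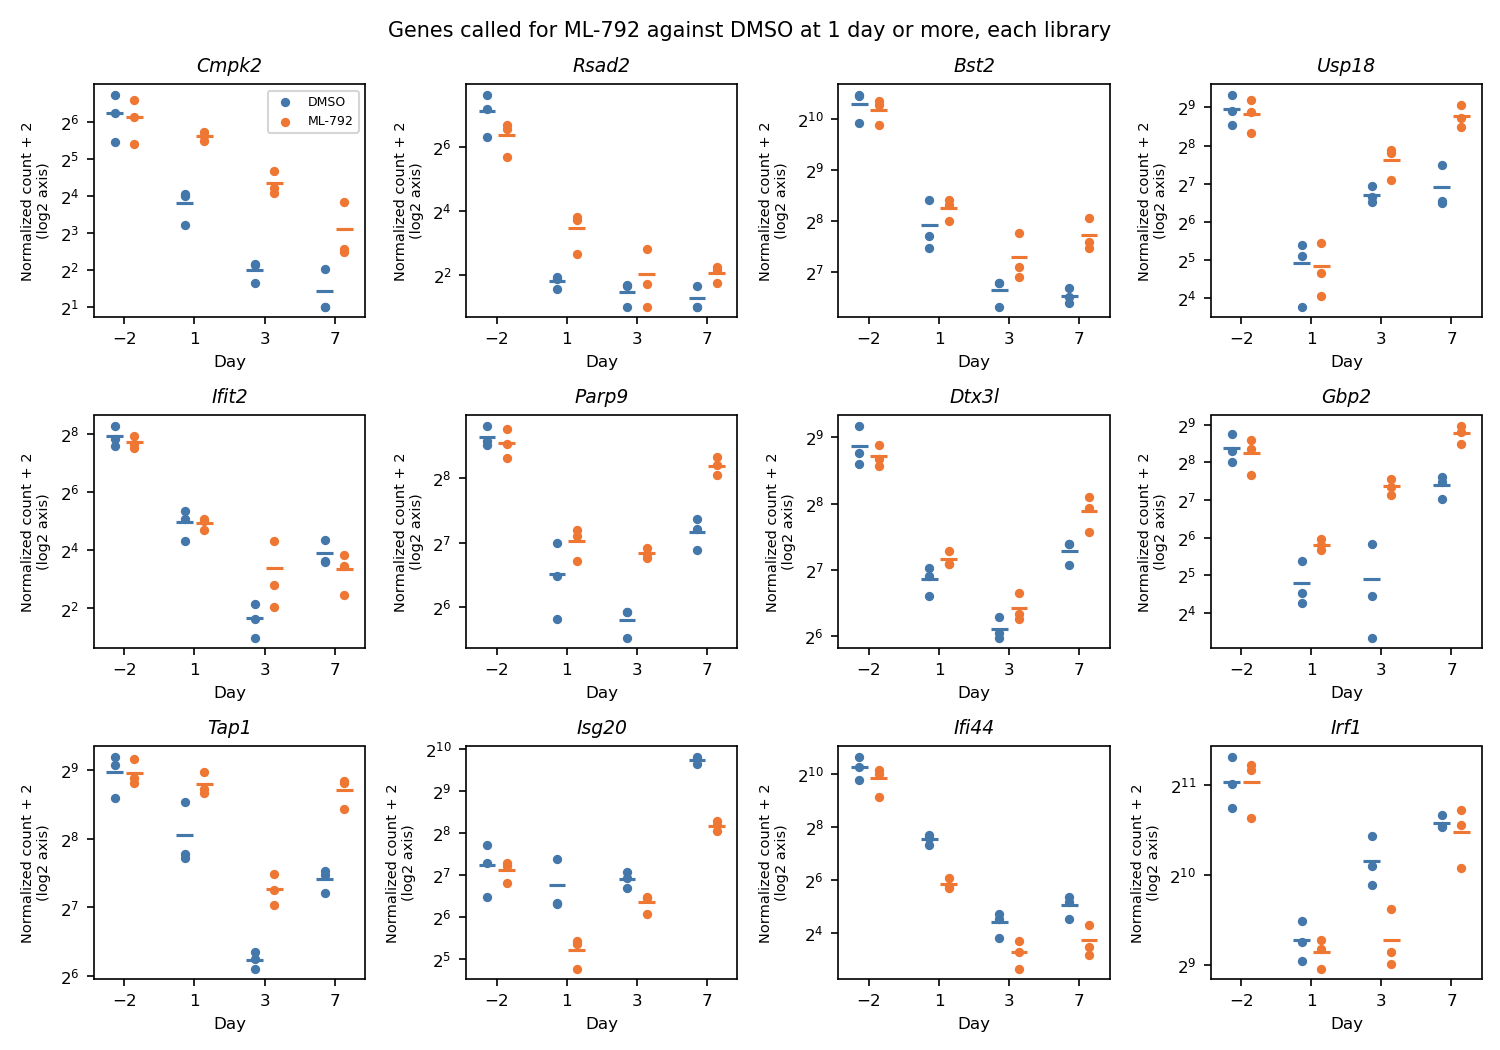
Each panel is 1 of the 12 genes called for ML-792 at any day. Points are single libraries (DMSO blue, ML-792 orange), short lines are means, and the y axis is the normalized count plus 2 on a log2 scale. The blue and orange points overlap at day −2 in every panel, and part at day 7 for *Tap1*, *Gbp2*, *Parp9*, *Dtx3l*, *Usp18*, *Bst2*, *Cmpk2* and *Rsad2* (orange above) and for *Isg20* and *Ifi44* (orange below).

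Whether the effect of ML-792 depended on the day was tested by an F-test of 3 interaction terms in edgeR. The F-test called 8 of 32 genes at an adjusted p under 0.1 (11.9% of all genes), namely *Bst2*, *Cmpk2*, *Gbp2*, *Isg20*, *Parp9*, *Rsad2*, *Tap1* and *Usp18*. *Gbp2* had the smallest adjusted p (0.0147) and *Bst2* the largest (0.0931). The test was sensitive to the replicates. It called 0 of the genes without replicate A, 9 without B and 1 (*Gbp2*) without C. *Bst2*, *Parp9* and *Rsad2* were not among those called without B.

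Other genes of the pathway, from a list of 66 of which 53 were tested, were called higher in 5 cases and lower in 3 at day 1, in 5 and 5 at day 3, and in 6 and 1 at day 7. The shares of all genes called higher and lower were 3.81% and 4.09%, 8.19% and 7.35%, and 6.25% and 5.39% at these days. The genes of 2 proteasome subunits that prepare peptides for *Tap1* were higher. Other genes of peptide presentation in this list, *Psmb10*, *Tapbp* and *Tap2*, were not among those called at any day. *Psmb9* had 71, 57.8 and 91.6 normalized counts in DMSO and 478, 239 and 452 in ML-792 at day 7, with no overlap (log2 fold change 2.41, standard error 0.34, adjusted p = 4.47e-05, edgeR). *Psmb8* had 82.2, 100.0 and 99.6 against 266, 335 and 308 (log2 fold change 1.69, adjusted p = 0.000194, edgeR), and both were also higher at days 1 and 3. *B2m*, the light chain of MHC class I, had 24259, 16036 and 27604 against 60354, 45247 and 69169.6 (log2 fold change 1.36, adjusted p = 0.00127, edgeR) and was higher at day 3 as well. *Sp100*, a component of PML nuclear bodies, which are themselves rich in SUMO, had 0.905, 7.28 and 9.82 against 72.8, 33.2 and 61.3 at day 1 (log2 fold change 3.18, adjusted p = 0.00076, edgeR) and 5.51, 1.17 and 3.67 against 40.5, 40.1 and 50.5 at day 3 (log2 fold change 3.60, adjusted p = 0.00033). The others called higher were *Setdb1* (0.66 on the log2 scale) and *Mb21d1* (0.66) at day 1, *Zbp1* (1.91) at day 3, and *Irf2* (0.77), *Socs3* (1.53) and *Socs1* (1.06) at day 7. Among those called lower were *Ifngr1* (-0.76), *Socs1* (-0.93) and *Tmem173* (-0.98) at day 1, *Ifngr1* (-0.62), *Stat3* (-0.74), *Helz2* (-0.80) and *Znfx1* (-0.82) at day 3, and *Jak2* (-0.52) at day 7. The receptor genes *Ifnar1* and *Ifnar2* were called at no day.

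**Figure D4:**
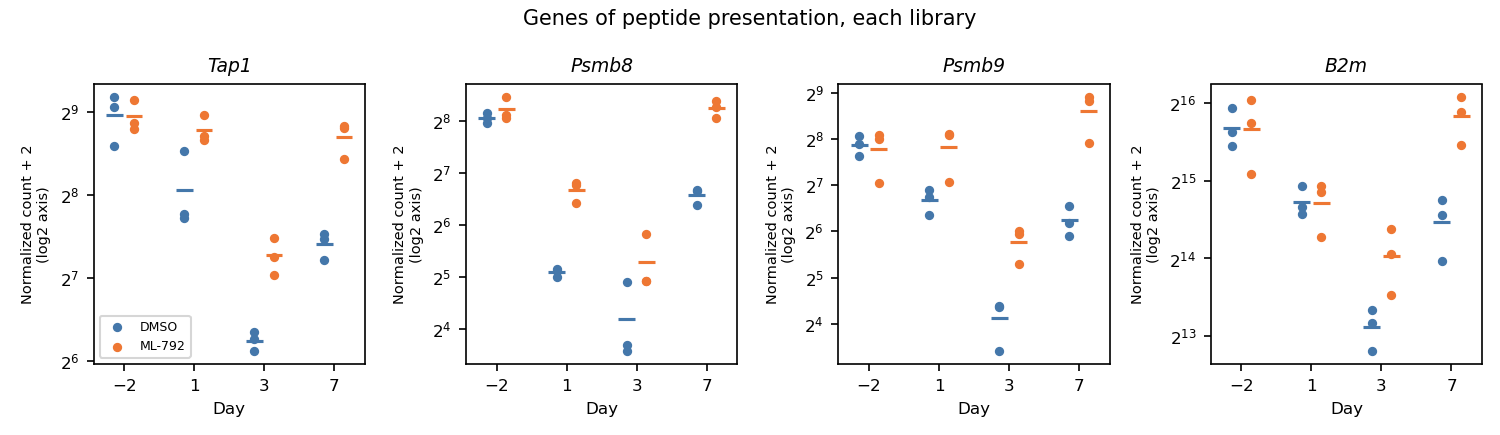
*Tap1*, *Psmb8*, *Psmb9* and *B2m* in each library (points, with means as short lines), as normalized counts plus 2 on a log2 axis. At day 7 the 3 ML-792 libraries lie above the 3 DMSO libraries in all 4 panels, and at day −2 they overlap. *Psmb10*, *Tapbp* and *Tap2*, which were not called, are not shown.

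Labelled reads count RNA made in the 45 min before harvest, together with conversions from sequencing error, which were not subtracted. In DMSO at day −2, the labelled share of total reads, summed over 3 libraries, ranged widely among the genes. *Irf1* had 13.3% (12.6% to 14.1%, 980 of 7347 reads), with the exact 95% binomial interval in parentheses, which covers counting error only. *Ifit1* had 14.9% (14.2% to 15.7%, 1303 of 8715 reads) and *Rsad2* 16.6% (13.4% to 20.3%, 80 of 481 reads). At the other end, *Lgals3bp* had 0.564% (0.444% to 0.707%, 75 of 13295 reads), *Ifi27* 0.595% (0.466% to 0.749%, 72 of 12093 reads) and *Bst2* 0.946% (0.679% to 1.28%, 41 of 4335 reads). The 21 genes with at least 1000 reads had a median of 3.52%, beside 2.28% for the 6627 genes with as many reads in the series. The share also depends on how many T bases lie within the reads counted, so the order of the genes is a description. The share of the whole libraries was 3.17% ± 0.485 at day −2 and 1.03% ± 0.0869 at day 7 in DMSO (SD, n = 3). *Irf1* had 3.33% (2.81% to 3.92%, 139 of 4174 reads) at day 7 and *Trim25* moved from 9.34% (8.47% to 10.3%, 386 of 4133 reads) to 4.55% (3.63% to 5.62%, 81 of 1781 reads).

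**Figure D5:**
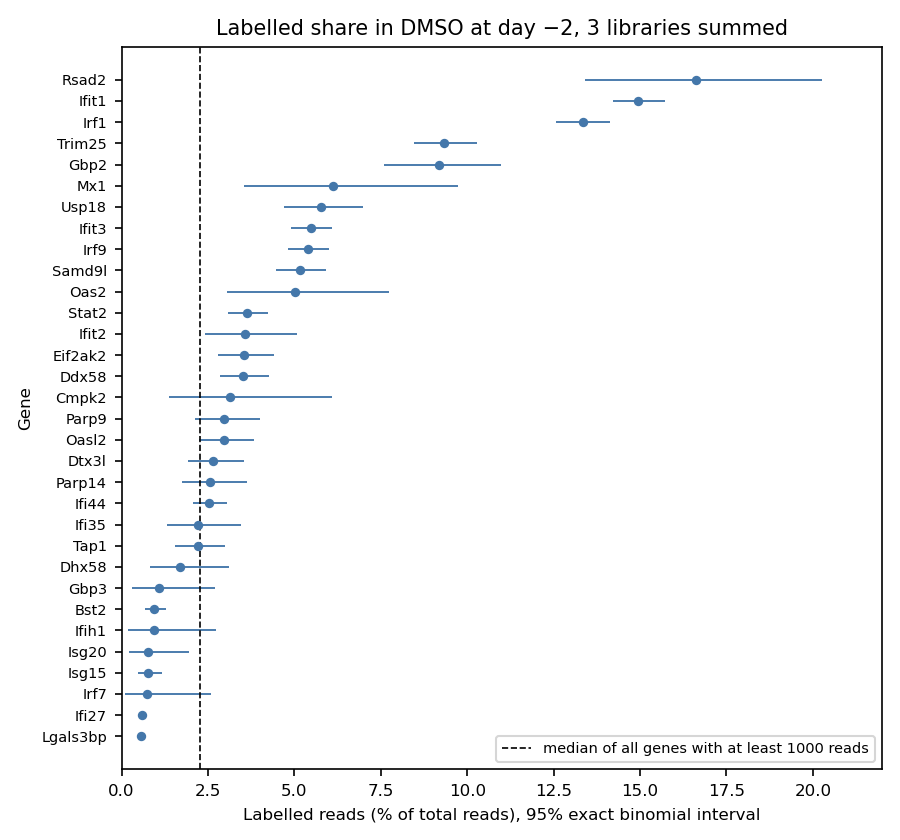
Labelled reads as a percentage of total reads in DMSO at day −2, for genes with at least 100 total reads in the 3 libraries together. Bars are exact 95% binomial intervals and the dashed line is the median of all genes with at least 1000 reads, 2.28%. *Rsad2*, *Ifit1* and *Irf1* lie above 12%, and *Lgals3bp* and *Ifi27* lie lowest.

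In labelled reads the genes fell over the DMSO time course too. Of 14 tested, 11 were lower at day 1 (20.6% of all genes), 13 at day 3 (33.4%) and 11 at day 7 (30.5%), at an adjusted p under 0.01 by edgeR. Most of the 14 passed the filter on low counts through day −2 alone. *Rsad2*, with 80 labelled reads at day −2 and none later, and *Usp18*, with 99 and then 0, 1 and 4, are examples. *Ifit3*, with 316 and then 3, 0 and 1, is another. For such genes a fall was the only change the test could show, and the counts and medians rest mainly on them. *Irf1* and *Trim25* are exceptions, with at least 16 and 24 labelled reads in every later DMSO library. All genes together had a median log2 fold change of -1.17, -1.55 and -1.45, against which the medians of the 14 genes were -4.03, -4.88 and -3.30. With genes at 0 set to their bound, the median at day 3 was -4.43. *Ifit1* had 244, 214 and 667 normalized labelled counts before induction, 10.9, 9.09 and 27.8 at day 1 and 3.38, 0 and 2.29 at day 7 (log2 fold change -7.57, adjusted p = 1.1e-12, edgeR). *Irf1* had 285, 198 and 355 at day −2, 14.5, 23.6 and 25.4 at day 1, 18.8, 30.4 and 42.8 at day 3 and 55.2, 43.3 and 55 at day 7. Its labelled counts were below day −2 in every later library, 5.46-fold at day 7 (adjusted p = 3.49e-06, edgeR), where its total counts were not called. Scaled by the labelled reads, the *Irf1* log2 fold change at day 7 was -1.13 in place of -2.45 and the call was lost (adjusted p = 0.0192, edgeR). Without replicate A, 7 genes were called at day 3 and 7 at day 7, and without replicate C 8 and 5. When scaled by the labelled reads themselves, 7, 5 and 3 genes were lower at days 1, 3 and 7.

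For ML-792 against DMSO, the labelled reads gave no call among the 19 genes tested. *Isg20*, *Cmpk2*, *Bst2* and *Ifit2*, called in total reads, did not pass the filter in labelled reads and could not be called. At day 7 *Isg20* had 21 labelled of 2356 reads in DMSO and none of 673 in ML-792. Many of the 19 genes held few labelled reads after induction, so the lack of calls does not show a lack of difference. By edgeR, 0 genes had an adjusted p under 0.1 at day −2 (0% of all genes), day 1 (1.06%), day 3 (1.15%) and day 7 (0.948%), while 0, 5, 3 and 0 had an unadjusted p under 0.05. DESeq2 called 1 gene, *Ifi44* at day 1, and 0 at the other days. *Ifi44* had 4.53, 4.55 and 4.09 normalized labelled counts in DMSO and no labelled read in ML-792 at day 1, at least 4.18-fold lower against a floor of 3 counts over the group (adjusted p = 0.126, edgeR). At day 3 *Irf1* had 18.8, 30.4 and 42.8 in DMSO and 9.85, 19.4 and 13.6 in ML-792 (log2 fold change -1.10, standard error 0.42, adjusted p = 0.298, edgeR), with overlap. *Tap1* had 5.63, 2.06 and 1.15 against 1.19, 6.54 and 1.36 at day 7 and *Gbp2* 1.13, 9.28 and 8.02 against 0, 3.92 and 6.82, and neither gene was called in labelled reads. The labelled share of *Gbp2* at day 7 was 3.74% (2.2% to 5.93%, 17 of 454 reads) in DMSO and 0.791% (0.342% to 1.55%, 8 of 1011 reads) in ML-792, and that of *Tap1* was 1.74% (0.752% to 3.39%, 8 of 461 reads) and 0.717% (0.289% to 1.47%, 7 of 976 reads). The intervals of *Gbp2* did not overlap and those of *Tap1* did, but they cover counting error only, not the spread between libraries. The normalized labelled counts of *Gbp2* overlapped between the groups. The share of the whole libraries at day 7 was lower with ML-792 too, 0.837% ± 0.031 against 1.03% ± 0.0869 in DMSO (SD, n = 3). A difference in share was not tested. The interaction of day and treatment called 0 of the 19 genes in labelled reads by edgeR (0.295% of all genes), with 3 at an unadjusted p under 0.05, and DESeq2 called 0.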

How the data were processed

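RNA of 3T3-L1 cells was sequenced from the 3′ end (QuantSeq, 50 base single reads) after labelling with 4-thiouridine and conversion of the labelled bases (SLAMseq). The authors aligned the reads to mm10 with SlamDunk 0.4.3 and deposited counts per RefSeq 3′UTR entry, separately for all reads and for reads with at least 1 T to C conversion. The submitters' processing notes also name bcl2fastq 2.17.1.14. The counts were used as deposited, and 6 library columns per table that matched no sample were left out. The deposited files list 91830 entries of 26995 symbols. The members of the list, the marker lists and the pathway list were chosen with earlier results of these data known.

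Entries were filtered with filterByExpr (minimum count 10, minimum total 15), scaled by TMM and tested with edgeR 4.0.16 (quasi-likelihood, prior count 2) in R 4.3.3 with limma 3.58.1. P-values were adjusted by Benjamini-Hochberg over all entries tested. For labelled counts, scaling used the effective library sizes found in total reads. ML-792 was compared with DMSO at each day in all 24 libraries (adjusted p under 0.1), and DMSO days with day −2 in the 12 DMSO libraries (adjusted p under 0.01). Where a gene had several entries, the best counted one stands for it. Values in every library are given for genes called for ML-792 and for the best counted gene of each role, and the rest are summarised. Where a group held no read, the fold is a lower bound against a floor of 3 counts over the group, and with 1 to 3 reads a ratio with a counting interval is given. PCR duplicates were not told apart by molecular identifiers, so intervals and floors cover counting error only. The fits were tested on simulated data with known changes. Alternatives were DESeq2 1.42.0, other filters on low counts, 1 entry per gene, the libraries of 1 day, a replicate block, other scaling of the labelled reads and leaving out each replicate. Python 3.11.15 with pandas 2.3.3, scipy 1.17.1 and matplotlib 3.10.9 was used for summaries and plots. One gene of the pathway list is not reported here by name.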

Additional observations from a re-analysis of the deposited data

Results flagged for a closer look

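The effect of ML-792 on total reads differed between days for 8 genes, by the F-test of 3 interaction terms in edgeR (24 libraries, 3 per condition). Day, medium and length of exposure to ML-792 cannot be told apart here. The adjusted p was 0.0147 for *Gbp2*, 0.0261 for *Cmpk2*, 0.0268 for *Tap1*, 0.031 for *Usp18*, 0.0347 for *Isg20*, 0.0579 for *Rsad2*, 0.0686 for *Parp9* and 0.0931 for *Bst2*. The log2 fold change of *Gbp2* was -0.14 at day −2 and 2.56 at day 3, that of *Tap1* -0.02 and 1.05, and that of *Cmpk2* -0.12 and 3.14. For *Usp18* it went from -0.12 at day −2 to 1.88 at day 7, for *Bst2* from -0.11 to 1.20 and for *Parp9* from -0.09 to 1.04. *Isg20* had -0.12 before induction, then -1.61, -0.57 and -1.58 on days 1, 3 and 7, and *Rsad2* had -0.77 at day −2 and 2.54 at day 1. Without replicate A none of the 8 was called (lowest adjusted p = 0.164, *Rsad2*, edgeR). Without replicate B the calls of *Bst2* (adjusted p = 0.232, edgeR), *Rsad2* (0.313) and *Parp9* (0.104) were lost. Without replicate C *Gbp2* alone was called. *Parp9* was also lost with both other filters on low counts (0.106 and 0.151).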

How the results depend on the processing

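Direction was compared for results on the genes of the list that were called in the main run or in the alternative, and none changed it. The interaction test was not compared for direction. The other pathway genes and the labelled shares were not rerun. Of the 21 calls for ML-792 in total reads, 8 were made in every alternative (*Isg20* and *Ifi44* at day 1, *Cmpk2* and *Gbp2* at day 3, and *Bst2*, *Isg20*, *Tap1* and *Usp18* at day 7). Leaving out 1 replicate letter gave 2 to 6 called genes at day 1, 3 to 8 at day 3, 4 to 10 at day 7 and 0 to 9 for the interaction of day and treatment. The 6 libraries of day 1 alone gave 3 calls in place of 5. In labelled reads DESeq2 gave 1 call at day 1 in place of 0. In the DMSO time course of labelled reads, scaling by the labelled reads gave 7, 5 and 3 genes at days 1, 3 and 7 in place of 11, 13 and 11, and leaving out 1 letter gave 7 to 13 at day 3 and 5 to 13 at day 7. The cause was not tested, beyond the fewer libraries that leaving out a letter or the other days leaves. With a replicate block, 11 genes were called at day 3, 14 for the interaction and 1 in labelled reads at day 1, in place of 7, 8 and 0. The main fits did not pair the letters. The deviations of DMSO and ML-792 libraries of the same day and letter correlated at -0.016 to 0.288 in total reads. Between libraries of different conditions the mean correlation was 0.191 for the same letter and -0.094 for other letters. Deviations were taken from the mean of each condition, so the negative value largely follows from the positive one and is no separate baseline. Genes with few reads after induction, among them *Oas2*, *Oasl2*, *Mx1* and *Rsad2*, have wide counting errors.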
